A study of Mus musculus with 12 samples.

Results

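The hemidesmosome and laminin-332 genes are 7 of the 55573 genes counted in this series: Itga6, Itgb4, Lama3, Lamb3, Dst, Plec and Cd151. They were taken by gene symbol, all 7 were found, and all 7 passed the filter on low counts that left 14226 genes for testing. The source was PB3, a mouse breast cancer line grown in culture, from which polyadenylated RNA was read; it is labelled as lacking the estrogen receptor, the progesterone receptor and HER2. The 12 libraries formed 4 groups of 3. The ERI-R line was derived from PB3 by exposure to eribulin, PAC-R by exposure to paclitaxel and VIN-R by exposure to vinorelbine, each drug being used at 300, 500 and 800 nM, and Control was the untreated parental line. The labels call the resistant cells clones and do not say at which dose a library was taken, nor whether each replicate was its own culture. The p-values here therefore cover the variation among these libraries alone, which may be technical. All 3 comparisons with Control share the same Control libraries.

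Hemidesmosomes fasten epithelial cells to the basement membrane. Their core is integrin α6β4 (Itga6 and Itgb4), which binds laminin-332 outside the cell and plectin (Plec) inside it. The epithelial form of dystonin (Dst), also called BP230, ties the structure to keratin filaments, and the tetraspanin Cd151 associates with the integrin in the membrane. Laminin-332 is a trimer that includes the α3 chain, encoded by Lama3, and the β3 chain, encoded by Lamb3. In the mammary gland these genes are typical of the basal, or myoepithelial, layer, and α6β4 has been widely studied in breast carcinoma.

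The genes lie on different chromosomes of GRCm38, except that Lamb3 and Dst share chromosome 1. Itga6 spans 71745616 to 71858416 of chromosome 2, Itgb4 spans 115974709 to 116008412 of chromosome 11, and Lamb3 spans 193207699 to 193343878 of chromosome 1, all on the plus strand. Dst spans 33908225 to 34308661 of chromosome 1 and Cd151 spans 141467392 to 141471473 of chromosome 7, both on the plus strand. Plec spans 76170974 to 76232574 of chromosome 15 on the minus strand.

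Promoter windows from RefSeq (GRCm38.p6), reaching from 250 bases before to 50 bases after a start site, were matched for 3 of the 7 genes, with 2 windows each for Lamb3, Dst and Cd151. The Lamb3 windows and the Dst window at which GENCODE transcripts of 8788, 8961 and 16340 bases start are shown because these genes changed most, and in opposite directions. Capitals mark CACCTG, an E-box sequence that ZEB and SNAIL factors can bind. The first Lamb3 window is chr1:193301744-193302043, the second is chr1:193301993-193302292, and the Dst window is chr1:34160010-34160309, all on the plus strand.
Lamb3, first start: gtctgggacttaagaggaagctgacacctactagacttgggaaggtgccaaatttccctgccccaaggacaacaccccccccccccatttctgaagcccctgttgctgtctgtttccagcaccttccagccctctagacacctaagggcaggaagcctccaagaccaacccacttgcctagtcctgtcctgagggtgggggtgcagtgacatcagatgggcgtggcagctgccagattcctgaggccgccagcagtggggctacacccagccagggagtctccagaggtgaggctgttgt
Lamb3, second start: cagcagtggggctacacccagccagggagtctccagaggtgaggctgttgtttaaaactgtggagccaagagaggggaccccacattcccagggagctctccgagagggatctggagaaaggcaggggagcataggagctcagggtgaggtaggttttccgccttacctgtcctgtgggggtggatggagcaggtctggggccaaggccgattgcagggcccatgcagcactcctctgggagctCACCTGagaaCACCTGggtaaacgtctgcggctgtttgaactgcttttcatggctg
Dst: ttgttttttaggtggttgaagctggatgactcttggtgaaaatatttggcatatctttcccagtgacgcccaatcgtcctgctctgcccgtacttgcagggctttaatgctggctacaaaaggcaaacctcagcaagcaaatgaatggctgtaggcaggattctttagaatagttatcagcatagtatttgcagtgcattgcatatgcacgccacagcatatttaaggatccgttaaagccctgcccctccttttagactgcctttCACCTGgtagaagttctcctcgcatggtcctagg
CACCTG, searched on both strands, was present in 20.2% of 32851 promoter windows of this length, and in 2.88% of them at least 2 times. The second Lamb3 window held 2 matches, at positions -6 and 5 from its start site, and the first held none. The Dst window shown held 1 match at position 17, and the other Dst window and 1 Cd151 window held 1 match each. TGANTCA, bound by AP-1 factors and found in 7.81% of windows, and AACCGGTT, bound by Grainyhead factors and found in 0.146%, had no match in the 6 windows. None of the matches overlapped. A match describes the letters of a window and shows neither binding nor use.

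Library totals lay between 11141028 and 13454395 expected counts, so that 3 counts, taken as the floor of detection, corresponded to 0.223 to 0.269 CPM (counts scaled to library size, with TMM factors). In each group 1 library had almost no leukocyte transcripts: the 14 leukocyte markers summed to between 3.68 and 7.75 CPM in ERI-R 3, PAC-R 3, VIN-R 3 and Control 1, with 9 to 11 of the 14 at 0 counts. In the other 8 libraries they summed to between 697 and 4675 CPM with none at 0. Comparisons were therefore repeated within those 8 libraries and with the leukocyte markers as a covariate. Among transcripts of the labelled receptors, Esr1 averaged 9.41 CPM in ERI-R, against 12.7 CPM in Control, and Erbb2 averaged 40.0 CPM in ERI-R, against 31.1 CPM in Control. Pgr had 113, 76 and 19 counts in ERI-R 1, 2 and 3, against 0, 3 and 0 counts in Control, which is at or under the floor. In bulk libraries fewer cells with a transcript and less transcript per cell cannot be told apart.

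The 7 genes split in ERI-R. Against Control, Lamb3 and Itgb4 rose and Dst and Plec fell, while Lama3, Itga6 and Cd151 did not pass the test, an edgeR quasi-likelihood test with Benjamini-Hochberg adjustment over all tested genes at 0.05. The 4 called of 7 stood against 19.2% of all tested genes called in that comparison, 9.51% higher and 9.69% lower. The members' median log2 fold change was -0.76, and that of all tested genes was -0.004. In PAC-R and in VIN-R none of the 7 was called against Control.

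**Figure D1:**
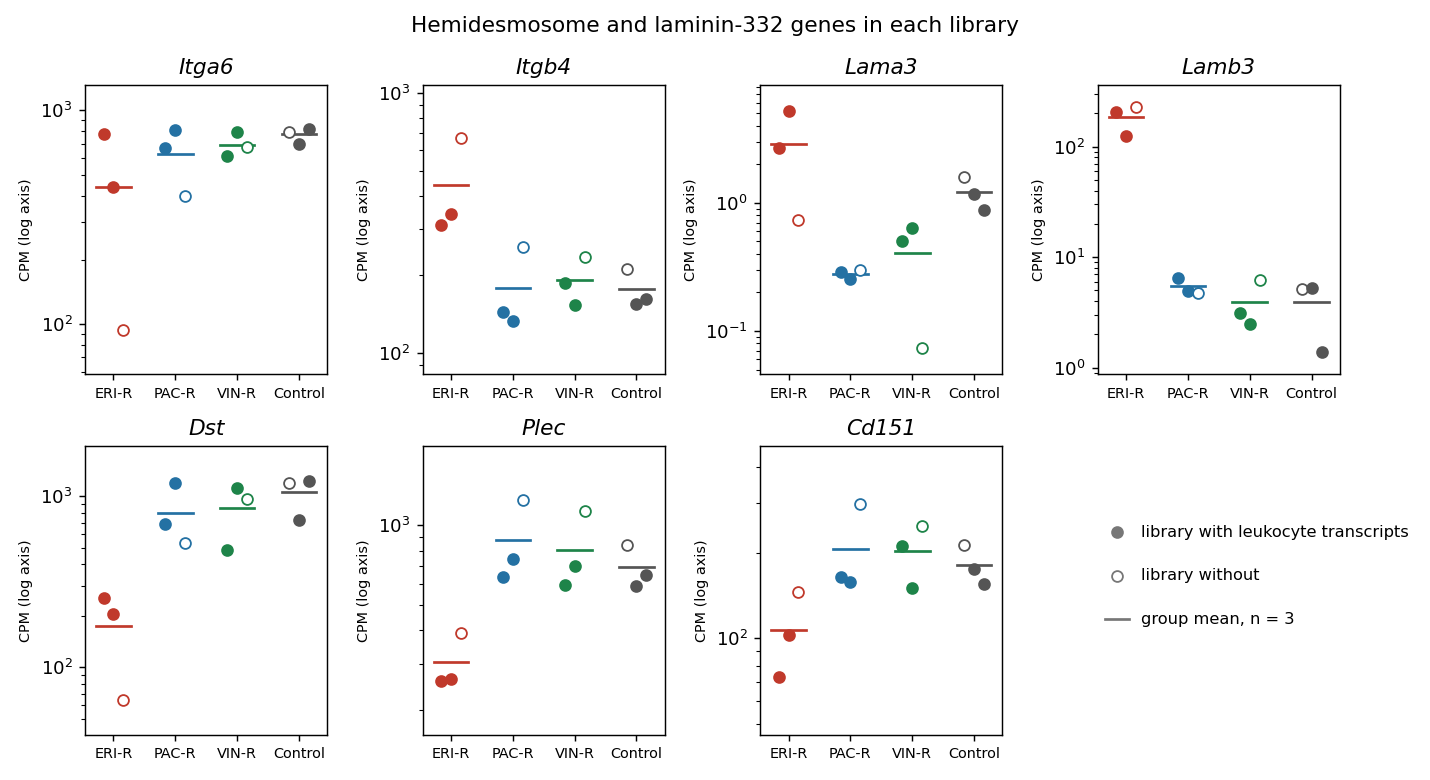
CPM of each of the 7 genes (log axis) in the 12 libraries by group, with lines for group means (n = 3); open circles are the libraries without leukocyte transcripts. Lamb3 lies between 123.9 and 225.9 CPM in ERI-R and at or below 6.52 CPM elsewhere, and Dst and Plec are lower in every ERI-R library than in any other.

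Lamb3, the laminin β3 chain, had 204.1, 123.9 and 225.9 CPM in ERI-R 1, 2 and 3. It had 6.52, 4.97 and 4.78 CPM in PAC-R, 3.10, 2.47 and 6.20 CPM in VIN-R, and 5.13, 5.28 and 1.40 CPM in Control. Every ERI-R library lay far above every other library, and the other 3 groups overlapped. The log2 fold change of ERI-R against Control was 5.55 (SE 0.60, edgeR adjusted p = 0.00038), a 46.7-fold higher level, and Lamb3 ranked 73 of 14226 genes by p. Against PAC-R the log2 fold change was 5.09 (SE 0.58, edgeR adjusted p = 0.00052), and against VIN-R it was 5.55 (SE 0.60, edgeR adjusted p = 0.00033). Within the 8 libraries with leukocyte transcripts the fold change against Control was 5.72 on the log2 scale (edgeR adjusted p = 0.00086), so the rise was as large there. Lamb3 overlaps Hsd11b1 and G0s2 on the opposite strand, and its exons share 0 bases with theirs in GENCODE M21. The mean length of Lamb3 transcripts was 3865, 3862 and 4009 bases in ERI-R, against 4056, 4056 and 4013 bases in Control. The groups did not overlap, with a difference of -130 bases (exact two-sided permutation p = 0.1, the smallest that 3 against 3 libraries allow).

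Lama3, the laminin α3 chain, encoded between 12333819 and 12583013 of chromosome 18 on the plus strand, was scarce in every group. It had 2.67, 5.19 and 0.736 CPM in ERI-R, on 35, 68 and 7 counts, against 1.59, 1.17 and 0.874 CPM in Control, on 22, 14 and 10 counts. PAC-R libraries had 3, 3 and 4 counts (0.288, 0.253 and 0.299 CPM) and VIN-R libraries 6, 7 and 1 (0.502, 0.640 and 0.0738 CPM), which is near the floor. ERI-R overlapped Control, because ERI-R 3 was below all 3 Control libraries, and it stood above PAC-R and VIN-R in each library. The log2 fold change of ERI-R was 1.24 against Control (SE 0.73, edgeR adjusted p = 0.29), 3.31 against PAC-R (SE 0.82, edgeR adjusted p = 0.016) and 2.82 against VIN-R (SE 0.79, edgeR adjusted p = 0.029). Against Control it was 0.53 without ERI-R 2, and 2.03 (edgeR adjusted p = 0.025) within the 8 libraries with leukocyte transcripts. The call against PAC-R was lost without ERI-R 2 (2.59, edgeR adjusted p = 0.061) or without PAC-R 1, 2 or 3, where the edgeR adjusted p was 0.062, 0.067 and 0.051. The call against VIN-R was lost without ERI-R 1 (2.88, edgeR adjusted p = 0.05), ERI-R 2 (2.10, edgeR adjusted p = 0.11), VIN-R 1 (3.00) or VIN-R 3 (2.31, edgeR adjusted p = 0.079 for both). Lama3 has a short and a long annotated transcript, of 5551 and 10548 bases. The mean length that RSEM gave Lama3 was that of the short form in all 3 ERI-R libraries and in Control 1 and 2, and 6144 bases in Control 3.

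In TPM (divided by transcript length), Lamb3 averaged 71.5 ± 32.9 in ERI-R and 1.61 ± 0.889 in Control (SD, n = 3 each), while Lama3 averaged 0.920 ± 0.782 in ERI-R and 0.353 ± 0.127 in Control (SD, n = 3 each).

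The make-up of the laminin α and β chains differed in the same libraries. Lamb3 held 52.5%, 46.2% and 69.9% of the summed TPM of the β chains in ERI-R 1, 2 and 3, against 0.599%, 0.823% and 0.159% in Control, and between 0.404% and 1.27% in PAC-R and VIN-R. Lamb1, the most widely expressed β chain, held 41.4%, 47.6% and 21.5% in ERI-R and 84.9% to 92.9% in the other libraries. Among α chains, Lama4, typical of vessels and mesenchyme, held 26.9% to 39.4% in ERI-R and 0.393% to 2.41% elsewhere. Lama5, the main epithelial α chain of adult basement membranes, held 57.8% to 72.9% in ERI-R and 97.3% to 99.3% elsewhere, and Lama3 held at most 2.43% in any library. Of the 9 other laminin chain genes 6 were tested, and against Control 1 rose and 3 fell in ERI-R. Over all tested genes 9.51% rose and 9.69% fell. Lama4 had a log2 fold change of 4.41 (edgeR adjusted p = 0.00042), Lamb1 of -2.49 (edgeR adjusted p = 0.0012) and Lama5 of -1.47 (edgeR adjusted p = 0.033). The Lama5 call was lost in 9 of 22 alternatives, among them those without Control 1 (-1.03), Control 3 (-1.55), ERI-R 2 (-1.31) and ERI-R 3 (-1.20).

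**Figure D2:**
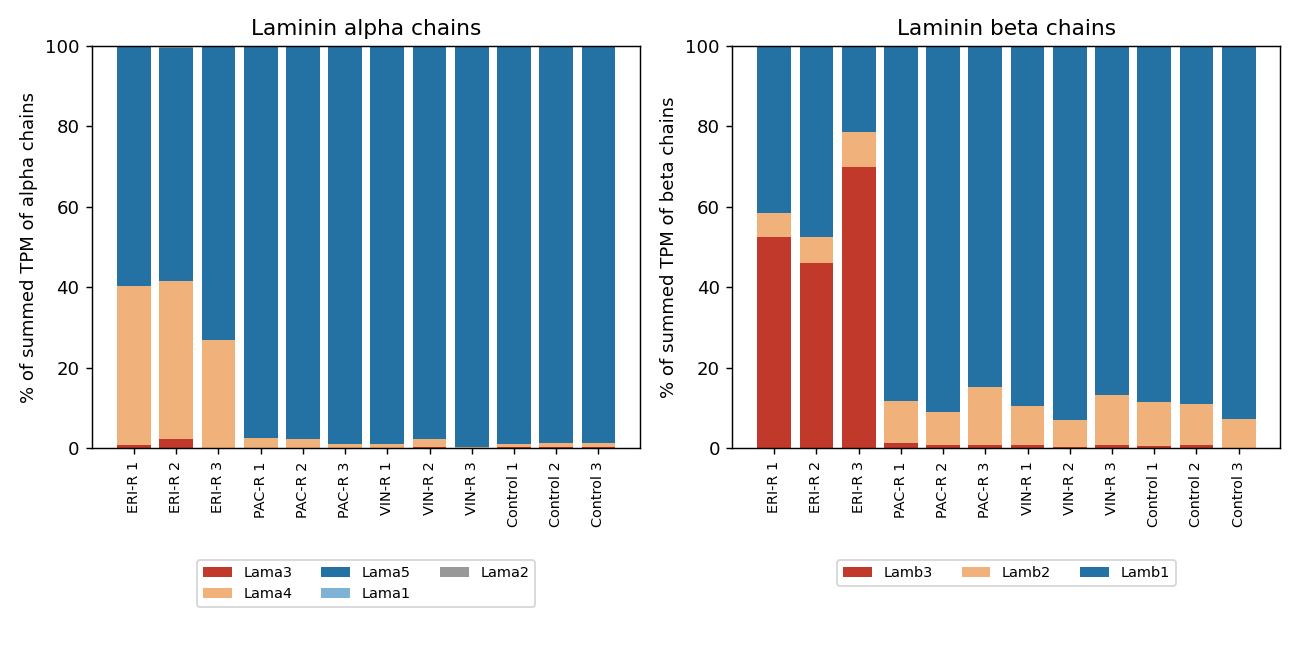
Share of each chain (%) in the summed TPM of the laminin α and β chains, as stacked bars for the 12 libraries. Lamb3 makes up 46.2% to 69.9% of the β chains in ERI-R and at most 1.27% elsewhere, and Lama4 26.9% to 39.4% of the α chains in ERI-R.

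Itgb4, the integrin β4 chain whose long cytoplasmic tail recruits plectin, had 309.6, 341.1 and 669.1 CPM in ERI-R 1, 2 and 3. It had 143.1, 132.7 and 255.2 CPM in PAC-R, 185.3, 152.2 and 233.9 CPM in VIN-R, and 210.9, 154.4 and 160.7 CPM in Control. No ERI-R library overlapped any other group. The log2 fold change of ERI-R was 1.33 against Control (SE 0.38, edgeR adjusted p = 0.033, a 2.51-fold higher level), 1.31 against PAC-R (SE 0.38, edgeR adjusted p = 0.035) and 1.21 against VIN-R (SE 0.38, edgeR adjusted p = 0.049). TPM divides by transcript length and also scales each library to the same sum. In TPM the ERI-R libraries were closer together, at 119.3, 113.0 and 100.8 TPM, against 66.0, 45.6 and 55.5 TPM in Control. ERI-R 3 was the lowest of the 3 ERI-R libraries in place of the highest. The effective length of Itgb4 was similar in ERI-R 1, 2 and 3, at 5092, 5214 and 5315 bases. The call against Control held within the 8 libraries with leukocyte transcripts (1.14, edgeR adjusted p = 0.0092) and with the leukocyte covariate (1.24, edgeR adjusted p = 0.0011). It was lost without Control 1 (1.54, edgeR adjusted p = 0.051), Control 2 (1.23), Control 3 (1.25), ERI-R 3 (1.04, edgeR adjusted p = 0.058) or VIN-R 1 (1.31, edgeR adjusted p = 0.053), with an edgeR adjusted p of 0.12 without Control 2 or Control 3.

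Itga6, the α6 chain that pairs with β4 or β1, had 776.8, 440.6 and 93.6 CPM in ERI-R, 670.7, 810.2 and 396.4 CPM in PAC-R, 613.7, 789.7 and 672.2 CPM in VIN-R, and 795.5, 698.8 and 822.5 CPM in Control. ERI-R 3 was far below every other library, and ERI-R 1 lay within the Control range. ERI-R 3 also stood apart in other genes and in both directions. Itgb1 had 208.7 CPM there, against 615.0 and 673.4 CPM in ERI-R 1 and 2, and Rpsa had 7582 CPM, against 949.3 and 1288 CPM. Its TMM factor, 0.855, was the lowest of all libraries. The log2 fold change of Itga6 against Control was -0.82 (SE 0.58, edgeR adjusted p = 0.39), and leaving out ERI-R 3 gave -0.20 and leaving out ERI-R 1 gave -1.51. The Itga6 to Itgb4 ratio in TPM was 3.86, 2.10 and 0.326 in ERI-R 1, 2 and 3. It was 8.05, 8.93 and 2.89 in PAC-R, 5.87, 7.73 and 4.70 in VIN-R, and 6.09, 7.60 and 7.48 in Control. All ERI-R ratios were below those of Control and VIN-R, and in ERI-R 3 alone the β4 transcript exceeded the α6 transcript.

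Dst, the plakin dystonin, had 255.0, 205.7 and 64.2 CPM in ERI-R 1, 2 and 3. It had 685.2, 1186 and 528.8 CPM in PAC-R, 482.6, 1110.5 and 957.6 CPM in VIN-R, and 1199.5, 721.8 and 1234 CPM in Control. Each ERI-R library was below each other library. Dst fell in ERI-R against Control with a log2 fold change of -2.59 (SE 0.56, edgeR adjusted p = 0.0082), a 6.01-fold lower level, and it was lower than in PAC-R (-2.19, SE 0.55, edgeR adjusted p = 0.017) and VIN-R (-2.28, SE 0.55, edgeR adjusted p = 0.014). The fall against Control was called in all 22 alternatives, with an edgeR adjusted p of at most 0.038, and the difference from PAC-R was lost without PAC-R 2 (-1.81, edgeR adjusted p = 0.068). Dst makes epithelial, neural and muscle isoforms of very different size. Its abundance-weighted mean transcript length was 10981, 9350 and 7475 bases in ERI-R, against 9331, 7583 and 9946 bases in Control. The ranges overlapped, with a difference of 315 bases (exact two-sided permutation p = 0.9, where 3 against 3 libraries cannot give less than 0.1). No shift in mean Dst length was detectable. Such a mean can stay equal while the shares of isoforms change. The fall of Dst is therefore not assigned to the epithelial form or to any other.

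Plec, plectin, had 258.5, 263.0 and 390.4 CPM in ERI-R, 635.3, 745.0 and 1244 CPM in PAC-R, 594.9, 699.4 and 1126 CPM in VIN-R, and 839.8, 586.6 and 649.1 CPM in Control. Every ERI-R library was below every other library. The log2 fold change of ERI-R was -1.19 against Control (SE 0.36, edgeR adjusted p = 0.043), -1.53 against PAC-R (SE 0.37, edgeR adjusted p = 0.014) and -1.41 against VIN-R (SE 0.37, edgeR adjusted p = 0.02). The call against Control held within the 8 libraries (-1.15, edgeR adjusted p = 0.01) and with the leukocyte covariate (-1.22, edgeR adjusted p = 0.0014), and it was lost in 11 of 22 alternatives. These included the fits without Control 1 (-0.95, edgeR adjusted p = 0.17), Control 2 (-1.31, edgeR adjusted p = 0.069), Control 3 (-1.25, edgeR adjusted p = 0.087), ERI-R 1 (-1.07, edgeR adjusted p = 0.12), ERI-R 2 (-1.06, edgeR adjusted p = 0.14), PAC-R 2 (-1.20, edgeR adjusted p = 0.055) or VIN-R 2 (-1.20, edgeR adjusted p = 0.053). Plec shares 205 exonic bases with Parp10 on the same strand, which averaged 27.3 CPM in ERI-R, against 20.7 CPM in Control. The mean length of Plec transcripts was 14873, 14903 and 14886 bases in ERI-R, against 14525, 14871 and 14687 bases in Control, without overlap. The difference was 193 bases (exact two-sided permutation p = 0.1, the smallest possible).

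Cd151 had 73.2, 102.8 and 145.6 CPM in ERI-R, 164.8, 158.2 and 297.1 CPM in PAC-R, 210.9, 150.3 and 248.3 CPM in VIN-R, and 212.9, 174.7 and 155.6 CPM in Control. All ERI-R libraries were below all others, but the log2 fold changes of -0.76 against Control (SE 0.35, edgeR adjusted p = 0.18), -0.95 against PAC-R (edgeR adjusted p = 0.097) and -0.92 against VIN-R (edgeR adjusted p = 0.1) did not pass. With the leukocyte covariate Cd151 was called against Control at -0.81 (edgeR adjusted p = 0.014). On the CPM scale Itgb4, Plec and Cd151 were each highest in the library without leukocyte transcripts in all 4 groups, as were 20.3% of the tested genes, and their part in these results was otherwise not tested. In TPM, ERI-R 3 was the lowest ERI-R library for all 3 genes.

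Between lines, 5 of the 7 genes differed for ERI-R against PAC-R, 3 higher and 2 lower, where 18.7% of all tested genes were called, 9.19% higher and 9.55% lower. Against VIN-R the same count, 3 higher and 2 lower, stood against 19.3%, with 9.55% higher and 9.74% lower. They were Lamb3, Lama3, Itgb4, Dst and Plec in both cases. These comparisons share the ERI-R libraries. The Itgb4 difference from PAC-R was lost without Control 2, Control 3, ERI-R 3, PAC-R 1, PAC-R 2 or VIN-R 1, at log2 fold changes down to 1.01, and the Itgb4 difference from VIN-R was lost without Control 2, Control 3, ERI-R 2, ERI-R 3, PAC-R 1, PAC-R 2, VIN-R 1, VIN-R 2 or VIN-R 3, at log2 fold changes down to 0.90. The Plec difference from PAC-R was lost without ERI-R 1 (-1.42), ERI-R 2 (-1.42) or PAC-R 3 (-1.20), and that from VIN-R without ERI-R 1 (-1.30), ERI-R 2 (-1.30) or VIN-R 3 (-1.10).

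**Figure D3:**
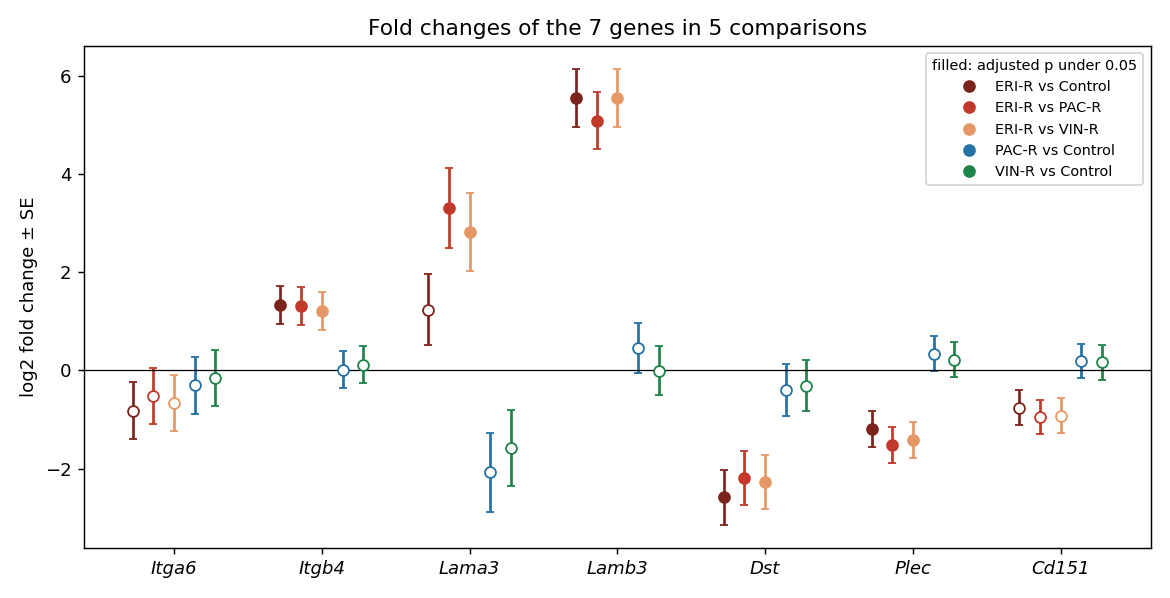
Log2 fold changes with SE of the 7 genes in 5 comparisons of the edgeR fit; filled points have an adjusted p under 0.05. Lamb3 reaches 5.55 in ERI-R against Control and 0.46 in PAC-R against Control, and no point of PAC-R or VIN-R against Control is filled.

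No member passed the test in PAC-R or in VIN-R. None of the 7 was called in PAC-R or VIN-R against Control by edgeR or DESeq2. Over all tested genes edgeR called 0% in either comparison, and DESeq2 called 6 higher and 18 lower in PAC-R and 13 higher and 23 lower in VIN-R. At an unadjusted edgeR p under 0.05 there was 1 member in PAC-R, Lama3, and there were 0 in VIN-R. Lama3 ranked 141 of 14226 genes by p in PAC-R, so at least 141 genes were under this threshold there. In VIN-R the member ranked first was also Lama3, at 476 of 14226. The log2 fold change of Lama3 was -2.08 in PAC-R (SE 0.80, edgeR adjusted p = 1) and -1.58 in VIN-R (SE 0.78, edgeR adjusted p = 1), on the few counts given above. All 3 libraries of PAC-R and of VIN-R lay below all 3 of Control. The other 6 genes had log2 fold changes from -0.39 (Dst) to 0.46 (Lamb3) in PAC-R and from -0.31 (Dst) to 0.22 (Plec) in VIN-R, with SEs of 0.35 to 0.58. Between PAC-R and VIN-R none of the 7 was called by edgeR or DESeq2, 0 had an unadjusted edgeR p under 0.05, and over all genes edgeR called 0% and DESeq2 5 genes higher and 0 lower. The members' log2 fold changes ran from -0.50 (Lama3) to 0.46 (Lamb3).

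Ranked by mean TPM, which corrects for length, the order of the genes differed between ERI-R and Control. In ERI-R it was Itga6 (243.4 ± 213.9), Itgb4 (111.1 ± 9.44), Cd151 (97.4 ± 17.9), Lamb3 (71.5 ± 32.9), Dst (30.7 ± 20.9), Plec (28.9 ± 6.87) and Lama3 (0.920 ± 0.782), with SD over 3 libraries. In Control it was Itga6 (387.9 ± 36.1), Cd151 (190.7 ± 38.4), Dst (189.5 ± 37.8), Plec (76.4 ± 19.0), Itgb4 (55.7 ± 10.2), Lamb3 (1.61 ± 0.889) and Lama3 (0.353 ± 0.127). In ERI-R only Lama3 stood apart from its neighbours beyond their spread, and in Control Cd151 with Dst and Plec with Itgb4 were neighbours within their spread.

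The other hemidesmosome and anchoring components moved strongly in ERI-R. Of these 5, 4 rose and 1 fell against Control, with a median log2 fold change of 4.48. Of all tested genes, 9.51% rose and 9.69% fell in that comparison. Col17a1, the transmembrane collagen BP180 of hemidesmosomes, had 16.5, 12.8 and 9.78 CPM in ERI-R, against 0.289, 0.922 and 0.525 CPM in Control (log2 fold change 4.48, edgeR adjusted p = 0.00087). The basal keratins, to which dystonin and plectin anchor, rose as well. Krt14 had 128.9, 273.9 and 924.1 CPM in ERI-R, against 1.88, 5.70 and 0.874 CPM in Control (log2 fold change 7.29, edgeR adjusted p = 0.0061). Krt5 had 4.27, 3.74 and 11.9 CPM in ERI-R, against 2 counts in all over the Control libraries, which gave a ratio of CPM of 113.5 (counting interval at 95%: 31.0 to 942.9, edgeR adjusted p = 0.002). Col7a1, which forms the anchoring fibrils below laminin-332, fell to 5.03, 2.44 and 3.58 CPM in ERI-R, against 197.4, 118.2 and 109.2 CPM in Control (log2 fold change -5.26, edgeR adjusted p = 0.00058).

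Other laminin receptors and plakins did not share 1 direction. Among 6 other receptors 1 rose and 3 fell in ERI-R against Control, where 9.51% of all tested genes rose and 9.69% fell. Bcam, which binds laminin α5, had a log2 fold change of 4.14 (edgeR adjusted p = 0.0007). Itga3, the α3 integrin chain that also binds laminin-332, fell to 124.8, 113.8 and 131.2 CPM in ERI-R, against 1577, 1053 and 992.4 CPM in Control (log2 fold change -3.29, edgeR adjusted p = 0.0012). Itga7, a laminin receptor best known from muscle, had -2.97 (edgeR adjusted p = 0.0022) and Itgb1, the partner of α3 and α6, had -1.90 (edgeR adjusted p = 0.012). Of 5 other plakins 3 rose and none fell, led by Evpl, envoplakin of the cornified envelope (5.31, edgeR adjusted p = 0.0089), and Dsp, desmoplakin of desmosomes (4.92, edgeR adjusted p = 0.006). Macf1 (-1.02, edgeR adjusted p = 0.23) and Ppl (-0.29, edgeR adjusted p = 0.58) had negative log2 fold changes that did not pass. Macf1 was lower in every ERI-R library than in any Control library. Dst and Plec fell in the libraries in which Evpl and Dsp rose.

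Among 12 other tetraspanins 1 rose and 3 fell in ERI-R against Control, where 9.51% of all tested genes rose and 9.69% fell. Tspan1 had 111 counts over the ERI-R libraries and 1 over Control, which gave a ratio of CPM of 115.5 (counting interval at 95%: 20.3 to 4605). Tspan15, a partner of the ADAM10 protease, had a log2 fold change of -3.80 (edgeR adjusted p = 0.0013) and Cd9 of -1.78 (edgeR adjusted p = 0.0062). Of 10 tested basement membrane components 7 fell and none rose, with a median log2 fold change of -5.34. Nid1, nidogen, which links laminin to collagen IV, had -6.31 (edgeR adjusted p = 0.0012). Col4a3, a collagen IV chain, had 0 counts in ERI-R and 147 in Control, at least 47.1-fold lower against a floor of 3 counts over the group. Of 3 tested proteases that can process laminin-332, Bmp1 fell (-2.70, edgeR adjusted p = 0.0014), and of 8 kinases and adaptors that act on the β4 tail, Prkca fell (-1.40, edgeR adjusted p = 0.02). Such single calls in a list stand against the 9.69% of all tested genes that fell. The Prkca call was lost in 5 of 22 alternatives, among them those without Control 1 (-1.20), Control 3 (-1.44) and ERI-R 2 (-1.45). By edgeR no gene of these lists was called in PAC-R or VIN-R against Control.

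**Figure D4:**
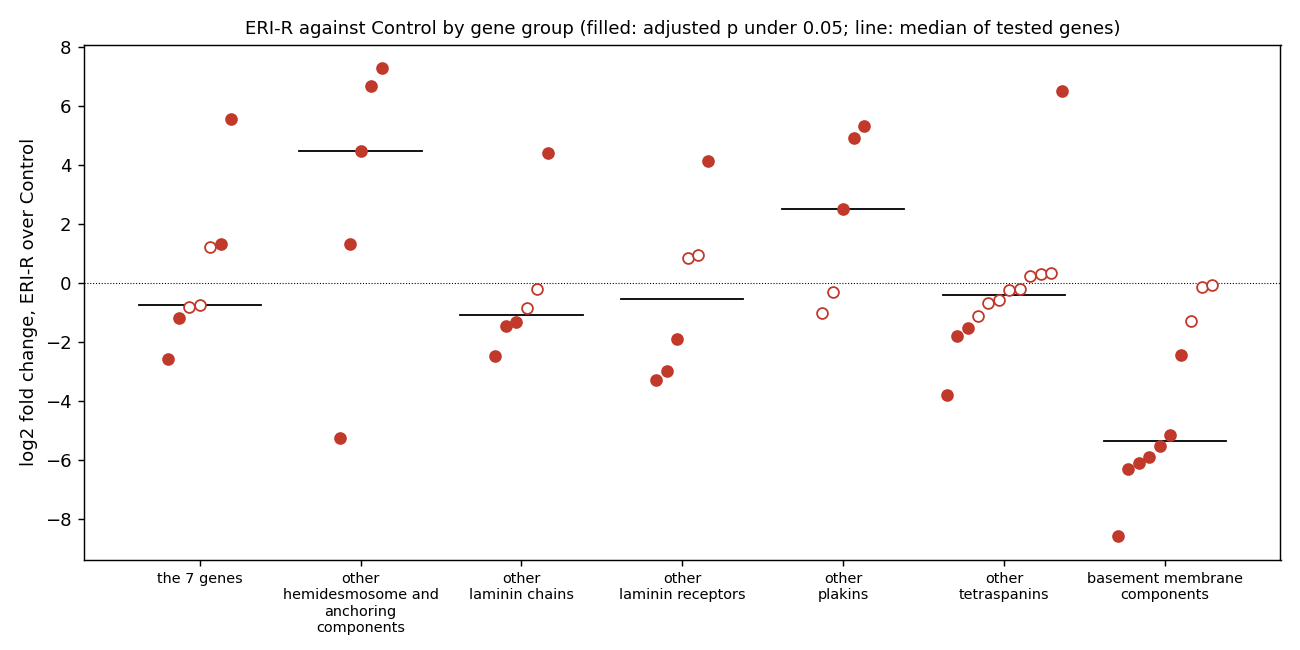
Log2 fold changes of ERI-R over Control for the 7 genes and 6 lists of partner genes; each point is a gene, filled where the edgeR adjusted p was under 0.05, and lines are medians of the tested genes. The 5 other hemidesmosome and anchoring components have a median of 4.48, the 10 basement membrane components one of -5.34, and the 7 genes one of -0.76.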

How the data were processed

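Per the labels' protocols, 200 ng of RNA was made into Kapa mRNA HyperPrep libraries and read as 76-base paired ends. The submitters' processing notes name bcl2fastq 2.20.0.422, cutadapt 2.4, STAR 2.7.2b, RSEM 1.3.2 and GRCm38; the strand setting is not given in the sources used here. Files deposited by the authors are RSEM gene-level output, and per the file headers they hold the expected count (estimated read pairs per gene, not normalized), TPM, FPKM, and the gene's length and effective length in bases averaged over its isoforms.

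Rounding the expected counts altered 15.3% of the values above 0. The filter filterByExpr kept 14226 of 55573 genes, and TMM factors were used. An edgeR 4.0.16 quasi-likelihood fit (R 4.3.3, limma 3.58.1, the data.table package, 1.17.8) held all 12 libraries and gave 6 comparisons, with Benjamini-Hochberg adjustment over all genes tested and calls under 0.05. The SE is the absolute log2 fold change divided by the square root of F. It had 8 residual degrees of freedom. TPM served for comparisons between genes, and FPKM and DESeq2 1.42.0 for alternatives. Intervals and floors cover counting error only. The code was tested on simulated data. With 200 of 14226 genes changed 8-fold in ERI-R against Control, 68% of them were recovered, and 4.9% of the calls were false. In the data 19.2% of genes were called, and changes such as those of Itgb4 (2.51-fold higher) and Plec (2.28-fold lower) were smaller. The simulated rates were not measured for changes of that size or number. Genes that did not pass may therefore still differ.

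The labels do not say that replicate numbers pair the libraries. In the data, the deviations from group means correlated above 0.1 in all 3 same-numbered pairs of ERI-R with PAC-R (0.61 to 0.76) and of PAC-R with VIN-R (0.22 to 0.92), in 2 of 3 pairs of ERI-R with VIN-R (0.08 to 0.67), and in 1 of 3 pairs of each line with Control (-0.86 to 0.74). By this measure libraries of the same number went together in the first 2 comparisons and not in those with Control. Of the 12 libraries 5 were closest to their own number, so the data do not show that the numbers pair cultures. The library without leukocyte transcripts carries number 3 in the resistant lines and number 1 in Control.

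The members, the 14 other lists (other laminin chains, hemidesmosome and anchoring components, laminin receptors, plakins, tetraspanins, basement membrane components, processing proteases, kinases and adaptors, and markers of leukocytes, endothelium, neural cells, epithelium, fibroblasts and receptor status) and the tests were chosen with earlier results of these data known. Named were all members and, per list, up to 2 rises and 2 falls with the largest called change in ERI-R against Control at a mean of 1 CPM or more, with direct partners and label checks added; 1 gene so taken is not reported here. Alternatives were 3 scalings, 2 filters, a fit without the robust prior, the 2 groups alone, a replicate block, the leukocyte covariate, the 8 libraries with Ptprc, DESeq2 and each library left out in turn.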

Additional observations from a re-analysis of the deposited data

Results flagged for a closer look

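For 5 of the 7 genes the change against Control differed between resistant lines, as tested by setting the lines against each other in the edgeR fit. For ERI-R against PAC-R the log2 difference was 5.09 for Lamb3, 3.31 for Lama3, 1.31 for Itgb4, -2.19 for Dst and -1.53 for Plec. For ERI-R against VIN-R it was 5.55 for Lamb3, 2.82 for Lama3, 1.21 for Itgb4, -2.28 for Dst and -1.41 for Plec. The Lamb3 differences were called in all 22 alternatives, and the libraries whose removal ends the other calls are named with the results.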

How the results depend on the processing

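For ERI-R against Control the 4 called members became 2 with no filter and 2 with only the 2 groups fitted, and 2 to 4 with 1 library left out. For ERI-R against PAC-R the 5 called became 1 with only the 2 groups fitted, where Lama3 was not among the tested genes, and 2 to 5 with 1 library left out. For ERI-R against VIN-R the 5 called became 1 with only the 2 groups fitted, again with Lama3 not tested, and 2 to 5 with 1 library left out. Lamb3 was called in all 22 alternatives of each ERI-R comparison. The whole table lost calls as well. With only the 2 groups fitted, it had 924 higher and 820 lower in ERI-R against Control, against 1353 and 1379 in the fit of all groups. For ERI-R against PAC-R it had 746 and 508 of 13562 genes, against 1308 and 1359 of 14226. For ERI-R against VIN-R it had 817 and 676 of 13543, against 1358 and 1386 of 14226. In ERI-R against Control there were 1321 and 1191 of 26948 with no filter, and 2167 and 2429 with the leukocyte covariate. In the 2-group fits Dst lost its call against PAC-R (-2.10, edgeR adjusted p = 0.11) and VIN-R (-2.28, edgeR adjusted p = 0.068). Over all tested genes PAC-R and VIN-R gained calls against Control under 3 alternatives, none a member: DESeq2, with the counts given in the report, the leukocyte covariate (2 higher and 1 lower in PAC-R, against 3 higher and 5 lower in VIN-R) and the fit without ERI-R 3 (1 higher and 1 lower in PAC-R, against 3 of each in VIN-R).

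With the replicate block the members called stayed at 4, 5 and 5 in ERI-R against Control, PAC-R and VIN-R, Lamb3 against Control was 5.51 and against PAC-R 5.07, and 5 of 12 libraries were closest to their own number. The block changed no member's call, and Lama5 against Control lost its call (-1.46, edgeR adjusted p = 0.052). With 1 library left out, Itga6 in ERI-R against PAC-R ran from -1.21 to 0.11, and Plec in VIN-R against Control from -0.10 to 0.40. The difference in mean Dst transcript length ran from -541 to 1212 bases in ERI-R, -1208 to 797 in PAC-R and -1509 to 495 in VIN-R against Control. The cause was not tested. The group means of the subunit ratios moved by less than 1 SD in all alternatives. Leaving out 1 of 3 libraries cannot move a mean by that much. FPKM nearly keeps the TPM ratios within a library. These alternatives therefore do not measure how stable the ratios are. Lama3 was limited by depth, with 1 to 7 counts in each PAC-R and VIN-R library.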

Other observations

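Of the 4 genes that overlap Lamb3 on the opposite strand 2 passed the filter and were tested, G0s2 and Hsd11b1, named after their values were seen, and both were higher in ERI-R. G0s2, an inhibitor of triglyceride lipase, had 29.2, 12.7 and 69.2 CPM in ERI-R, against 1.23, 1.59 and 1.05 CPM in Control (log2 fold change 4.83, edgeR adjusted p = 0.00059). Hsd11b1, which regenerates active glucocorticoid, had 21.9, 14.2 and 18.7 CPM in ERI-R, against 0, 0.922 and 0.175 CPM in Control (log2 fold change 5.62, edgeR adjusted p = 0.017), a call lost without Control 3 (5.29, edgeR adjusted p = 0.079). Neither G0s2 nor Hsd11b1 shares exonic bases with Lamb3. Gm37691, also named after its values were seen, overlaps Lamb3 on the same strand and shares 0 exonic bases with it. It averaged 2.47 CPM in ERI-R and 0.379 CPM in PAC-R. In VIN-R and Control it averaged 0.0855 and 0.0839 CPM, which is under the floor. Passing the filter therefore depended on its level in ERI-R, and no test result is given for it.

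Markers of other cell types varied too, where 9.51% of all tested genes rose and 9.69% fell in ERI-R against Control. Of 7 epithelial markers 3 rose and none fell in ERI-R against Control, and Krt8 (-0.79, edgeR adjusted p = 0.51) and Krt18 (-1.19, edgeR adjusted p = 0.3), keratins of simple epithelia, had negative log2 fold changes that did not pass. Epcam, an epithelial adhesion protein, had 234.3, 243.5 and 228.2 CPM in ERI-R, against 10.2, 8.13 and 4.63 CPM in Control (log2 fold change 4.94, edgeR adjusted p = 0.0057). Cdh1, E-cadherin, had 320.4, 297.1 and 94.4 CPM in ERI-R, against 12.9, 11.7 and 7.08 CPM in Control (log2 fold change 4.48, edgeR adjusted p = 0.0028). Of 5 tested fibroblast markers Pdgfrb fell (-4.63, edgeR adjusted p = 0.0011), of 3 tested neural markers S100b fell (-3.71, edgeR adjusted p = 0.019), and the call of S100b was lost without Control 2 (-3.43, edgeR adjusted p = 0.056). None of the 14 leukocyte markers and none of the 3 tested endothelial markers was called by edgeR or DESeq2. At an unadjusted edgeR p under 0.05 there were 0 and 1 of them. In this comparison at least 2732 of 14226 tested genes, those called, were under that threshold. Fewer than 4593 were, because Cd151 ranked 4593 by p and was not. Of the 3 receptor genes Pgr was called, with 208 counts over the ERI-R libraries and 3 over Control, a CPM ratio of 72.2 (95% counting interval 24.4 to 352.8), and the call was lost without Control 1, 2 or 3, ERI-R 1 or 2, or PAC-R 2, at log2 fold changes of 5.38 to 9.05.

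The genes whose centred log2 CPM over the 12 libraries lay closest to that of Itgb4 were Prpsap1 and Ptcd1 (root mean square difference 0.12 for both), Dynll2 (0.14), Oscp1 (0.15) and Psmg1 (0.16). Closest to Lamb3 were S100a14 (0.38), Shank2 (0.45), Smoc1 (0.53), Tgm5 (0.55) and Azgp1 (0.56). S100a14 averaged 26.0 CPM in ERI-R, 0.832 CPM in PAC-R, 0.412 CPM in VIN-R and 0.419 CPM in Control. These likenesses are descriptions over libraries of 4 groups.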
